A study of Bos indicus x Bos taurus with 17 samples.

Results

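The genes described are those that encode the proteins of the cytosolic ribosome, chosen by their names from the gene counts of fetal bovine liver and skeletal muscle. Of 21048 gene lines in each tissue's table, 82 carried such a name (RPL or RPS with a number, RPLP0 to RPLP2, or RPSA). They comprise 45 core proteins of the large subunit, 31 core proteins of the small subunit, and 6 paralogs whose names end in L or L1 (RPL3L, RPL7L1, RPL10L, RPL22L1, RPL26L1 and RPS27L). The fetuses were Bos indicus x Bos taurus crosses (Nelore and Holstein), healthy, at about day 105 of gestation. ART-Normal fetuses 1 to 4 were produced in vitro, a group named for a body weight near that of the controls (the weight of ART-Normal 4 is not given in the sources used here), and Control-AI fetuses 2 and 4 were conceived by artificial insemination. Liver and muscle of each fetus were sequenced as poly(A)-selected RNA, so each group is a bulk tissue of 4 or 2 animals, and the labels give neither sex nor batch. The question addressed here is how the ribosomal protein genes differed between the 2 tissues within the 4 ART-Normal fetuses, with the Control-AI fetuses shown apart.

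Each ribosome is built from a large subunit, which joins amino acids, and a small subunit, which reads the mRNA, and nearly all of their proteins are needed in equal amounts. Most of these mRNAs begin with a terminal oligopyrimidine (TOP) tract, through which their translation is adjusted together to nutrients and growth signals. A few ribosomal proteins have a second gene whose product can take the place of the usual one, and RPL3L, the partner of RPL3, is known for its restriction to striated muscle.

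The libraries held 12433300 to 43339598 counts in genes, and the lowest total was that of Control-AI 2 muscle. Hepatocyte marker genes summed to 38081 to 65381 CPM in the 4 ART-Normal liver libraries and to 26.2 to 68.6 CPM in their muscle libraries (CPM, counts per 1000000 after TMM scaling of the library totals). The skeletal muscle markers summed to 16711 to 26621 CPM in muscle and 7.54 to 11.1 CPM in liver, where TNNT1, MYL1 and MYOG were at 0. Markers of other cells were present too. Red blood cell precursors, which fill the fetal liver, gave marker sums of 6081 to 6927 CPM in liver and 208 to 667 CPM in muscle, and 9 of their 10 genes were higher in liver. Connective tissue genes summed to 803 to 1036 CPM in liver and 20787 to 24708 CPM in muscle, macrophage genes to 216 to 245 CPM and 72.0 to 99.7 CPM, and endothelial genes to 308 to 348 CPM and 390 to 454 CPM. Of the 3 endothelial genes, 1 was higher and 2 were lower in liver (log2 fold changes of liver over muscle from -2.11 to 1.78). The part of these cells in the differences below was not tested. In bulk tissue, fewer cells of a type and less RNA per cell cannot be told apart. Control-AI 2 stood apart from the other fetuses, with 377262 CPM of hepatocyte markers in liver against 72512 CPM in Control-AI 4.

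Ribosomal protein genes took a smaller share of the counts in liver than in muscle. In ART-Normal 1 to 4, the 82 genes held 4.27%, 3.80%, 4.29% and 3.99% of the liver counts and 5.37%, 5.16%, 4.64% and 5.77% of the muscle counts. The 2 tissues did not overlap. The mean was 4.09% ± 0.23 in liver and 5.24% ± 0.47 in muscle (SD, n = 4), a within-fetus difference of -1.15 ± 0.60 percentage points. Liver was lower in 4 of 4 fetuses, and the exact permutation test gave a two-sided p = 0.13, the smallest that 4 fetuses allow. The Control-AI livers were lower as well, at 1.97% against 3.18% in fetus 2 and 4.42% against 5.75% in fetus 4. With the 50 most abundant genes of each ART-Normal tissue left out (86 in all, 4 of them ribosomal protein genes), the difference was -1.18 points in ART-Normal (mean) and -1.31 in Control-AI 4, but in Control-AI 2 it went from -1.21 to -0.50 points. The 6 paralogs are a small part of this share. They took 0.0280% of the liver counts and 0.0198% of the muscle counts, and liver was higher in 4 of 4 ART-Normal fetuses (exact permutation p = 0.13). In Control-AI 4 liver was higher too (0.0297% against 0.0239%), but in Control-AI 2 it was lower (0.0127% against 0.0154%).

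**Figure D1:**
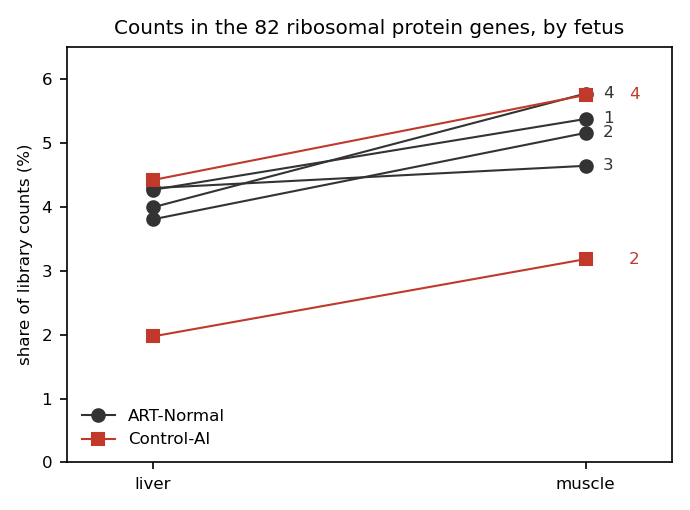
Share of each library's counts (percent, vertical axis) in the 82 ribosomal protein genes, with a line joining the liver and muscle of a fetus and the fetus number at the right. Circles stand for ART-Normal and squares for Control-AI. Each of the 6 lines rises from liver to muscle, and Control-AI 2 lies lowest at 1.97% and 3.18%.

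Gene by gene, the core proteins differed little between the tissues, and more of them were lower in liver than higher. Liver was compared with muscle within fetuses by edgeR's quasi-likelihood test with Benjamini-Hochberg adjustment, and a gene was called at an adjusted p of 0.05 or lower. Of the 76 core genes, all of which passed the filter on low values, 32 were lower in liver, 3 were higher and 41 were not called. Among all 12676 genes tested, 40.5% were called lower and 41.7% higher in liver, beside 42.1% and 3.95% of the core genes. Their median log2 fold change (liver over muscle) was -0.24, with a range from -0.84 to 0.35, and 65 of 76 values were negative. The median of all genes was 0.03. The median absolute log2 fold change was 0.26 for the core genes and 0.92 for all genes tested, and 0 of 76 core genes but 47.3% of all genes differed by more than 2-fold.

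Large-subunit genes had a median of -0.30, with 21 of 45 lower and 2 higher. Small-subunit genes had a median of -0.18, with 11 of 31 lower and 1 higher. In 22 core genes all 4 liver libraries lay below all 4 muscle libraries, and in 1 gene (RPL28) all lay above. Among all genes tested, 37.0% lay below and 38.1% above, each without overlap. The value varied among fetuses, without a test of that variation. The median log2 ratio of liver over muscle across the core genes was -0.15 in ART-Normal 1, -0.36 in ART-Normal 2, -0.02 in ART-Normal 3 and -0.45 in ART-Normal 4, with 53, 65, 40 and 69 of the 76 genes lower in liver. ART-Normal 3 therefore had nearly even numbers of core genes on either side.

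**Figure D2:**
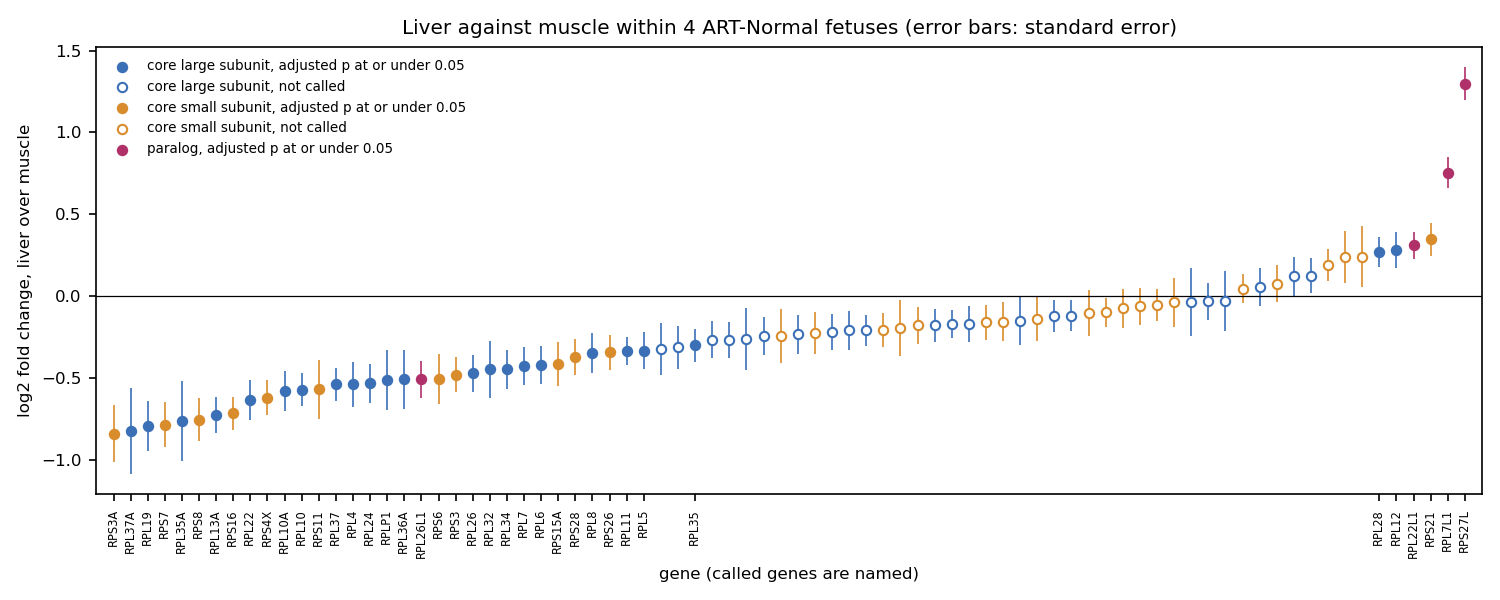
Log2 fold change of liver over muscle (vertical axis) for the 80 ribosomal protein genes that passed the filter, ordered from lowest to highest, in 4 ART-Normal fetuses. Bars are standard errors, filled points have an adjusted p of 0.05 or lower, colours mark large-subunit, small-subunit and paralog genes, and the called genes are named on the axis. The core genes run from -0.84 (RPS3A) to 0.35 (RPS21), and the paralogs RPL7L1 and RPS27L lie above them.

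The core gene with the lowest value was RPS3A, a small-subunit protein (gene 282053; chromosome 17, 6717403 to 6722090 on ARS-UCD1.2). It had 1194, 528, 891 and 647 CPM in the 4 ART-Normal livers, in order of fetus, and 1642, 1303, 1188 and 1462 CPM in the muscles. The liver of ART-Normal 1 overlapped the muscle range, although liver was lower within 4 of 4 fetuses. Its log2 fold change was -0.84 (SE, its standard error, 0.17, adjusted p = 0.001763 from edgeR). RPL37A, a zinc-binding protein of the large subunit (gene 504413; chromosome 2, 104487411 to 104490033), had 529, 160, 489 and 472 CPM in liver and 731, 650, 554 and 752 CPM in muscle. The tissues did not overlap, but the liver of ART-Normal 2 was far below the other livers. Its log2 fold change of -0.82 (SE 0.26, adjusted p = 0.01758) became -0.44 without ART-Normal 2.

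RPL19, a large-subunit protein that helps to bridge the subunits (gene 510615; chromosome 19, 39694197 to 39697795), had 527, 318, 542 and 482 CPM in liver and 757, 801, 731 and 893.3 CPM in muscle. All liver values lay below all muscle values, with a log2 fold change of -0.79 (SE 0.15, adjusted p = 0.001074 from edgeR). RPS7, a small-subunit protein also known to bind MDM2 (gene 505507; chromosome 8, 110987214 to 110992366), had 601, 528, 627 and 409 CPM in liver and 909, 909, 879 and 986 CPM in muscle. The liver level was 541 ± 97.4 CPM and the muscle level 921 ± 45.9 CPM (SD, n = 4), again without overlap. The test gave a log2 fold change of -0.78 (SE 0.14, adjusted p = 0.0006597).

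At the other end, RPS21 was the highest core gene, with 263, 208, 282 and 269 CPM in liver and 195, 174, 183 and 254 CPM in muscle (gene 615178; chromosome 13, 54866479 to 54867739). Liver was higher in 4 of 4 fetuses, although the muscle of ART-Normal 4 overlapped the liver range. A log2 fold change of 0.35 was obtained (SE 0.10, adjusted p = 0.01047 from edgeR), and it lost its call without ART-Normal 1 (adjusted p = 0.05537). RPL28 (gene 618702; chromosome 18, 62098871 to 62102343) had 249, 246, 290 and 271 CPM in liver and 231, 216, 200 and 227 CPM in muscle, with no overlap and a log2 fold change of 0.27 (SE 0.09, adjusted p = 0.02161). RPL12, a protein at the base of the stalk (gene 404133; chromosome 11, 98179657 to 98183844), had 287, 320, 360 and 353 CPM in liver and 295, 265, 237 and 287 CPM in muscle. Those ranges overlapped, and its log2 fold change was 0.28 (SE 0.11, adjusted p = 0.03714). The calls of RPL28 and RPL12 were lost with library totals or upper quartiles in place of TMM, and without ART-Normal 3 or 4. RPL12 also lost its call without ART-Normal 2. The value of RPL28 was 0.18 with library totals, and that of RPL12 was 0.18 without ART-Normal 3.

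The stalk proteins, which recruit the translation factors, did not share one value. RPLP1 had 637, 903, 1150 and 701 CPM in liver and 1074, 1147, 1069 and 1451 CPM in muscle. The liver of ART-Normal 3 lay inside the muscle range and the other 3 livers below it. It had a log2 fold change of -0.51 (SE 0.18, adjusted p = 0.02708 from edgeR), a call lost without ART-Normal 1 or 4. RPLP0, which anchors the stalk, had 1159, 1023, 1277 and 1307 CPM in liver and 1021, 1129, 1065 and 1377 CPM in muscle, and a log2 fold change of 0.06 (adjusted p = 0.6687), whose sign turns with upper quartile or library size scaling. RPLP2 had 226 to 420 CPM in liver and 258 to 444 CPM in muscle, and a value of -0.03 (adjusted p = 0.8899). RPSA, a small-subunit protein that is also known as a laminin receptor, had 1393 to 1619 CPM in liver and 1340 to 1512 CPM in muscle. Its log2 fold change was 0.08 (adjusted p = 0.5421) and was about 0 with the same scalings.

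The members lie on 28 chromosomes, and 4 of them on the X chromosome. RPS4X, a small-subunit protein, had 691, 528, 491 and 517 CPM in liver and 896, 864, 728 and 914 CPM in muscle. RPL10, a large-subunit protein needed for subunit joining, had 777, 640, 611 and 724 CPM in liver and 1027, 999, 938 and 1109 CPM in muscle. Neither gene's tissues overlapped, and both were lower in liver, with log2 fold changes of -0.62 (SE 0.11, adjusted p = 0.0005782) and -0.57 (SE 0.10, adjusted p = 0.00064) from edgeR. RPL36A had 65.0, 146, 150 and 141 CPM in liver and 160, 166, 156 and 201 CPM in muscle. ART-Normal 1 liver was far below the other livers. The log2 fold change of -0.51 (SE 0.18, adjusted p = 0.02833 from edgeR) became -0.28 without ART-Normal 1, and it lost its call without ART-Normal 4 (adjusted p = 0.05294) or without the fetus in the model (adjusted p = 0.06714). RPL39 had 279 to 423 CPM in liver and 317 to 466 CPM in muscle, and a value of -0.15 (adjusted p = 0.3537).

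The paralogs fell into several kinds. Of 6, RPL10L was at 0 counts in all 12 libraries, RPL3L was below the filter of 5 CPM, and 4 were tested. Of these, 3 were called higher and 1 lower in liver, where 82.2% of all genes tested were called (41.7% higher and 40.5% lower). RPS27L, a p53-responsive relative of RPS27 (gene 614220; chromosome 10, 46889158 to 46892623), had 90.2, 75.7, 79.4 and 70.3 CPM in liver and 34.3, 32.0, 27.6 and 34.4 CPM in muscle. Every liver was above every muscle, at 78.9 ± 8.44 against 32.1 ± 3.16 CPM (SD, n = 4), or 2.46-fold, with a log2 fold change of 1.30 (SE 0.10, adjusted p = 2.318e-06 from edgeR). It was the only one of the 80 members tested that differed by more than 2-fold.

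RPL7L1, a relative of RPL7 linked to ribosome assembly (gene 522029; chromosome 23, 16513241 to 16519583), had 103, 113, 109 and 112 CPM in liver and 72.4, 63.5, 55.6 and 68.0 CPM in muscle. The tissues did not overlap, and the log2 fold change was 0.76 (SE 0.09, adjusted p = 5.581e-05 from edgeR). RPL22L1, the partner of RPL22 (gene 614872; chromosome 1, 96572445 to 96576821), had 105, 84.2, 78.9 and 72.5 CPM in liver and 79.8, 71.8, 58.4 and 64.0 CPM in muscle. Liver was higher in 4 of 4 fetuses while the ranges overlapped, and the log2 fold change was 0.31 (SE 0.08, adjusted p = 0.005979). RPL26L1, the close relative of RPL26 (gene 534970; chromosome 20, 4716934 to 4723653), had 20.8, 15.1, 14.8 and 18.2 CPM in liver and 26.0, 25.6, 21.5 and 24.04 CPM in muscle. It was the tested paralog that fell in liver, without overlap, with a log2 fold change of -0.51 (SE 0.11, adjusted p = 0.002757).

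RPL3L (gene 618440; chromosome 25, 1507603 to 1514414) was scarce in both tissues and scarcer in liver. It had 0.67, 0.23, 0.083 and 0.035 CPM in liver and 2.23, 3.46, 2.81 and 4.07 CPM in muscle. No liver reached the lowest muscle, and the 4 livers together held 27 counts and the 4 muscles 259. With no filter on low values, edgeR's quasi-likelihood test gave a log2 fold change of -3.85 (SE 0.68, adjusted p = 0.0003902), in a test in which 70.0% of 18359 genes were called. RPL3 itself had 868, 737, 895 and 964 CPM in liver and 734, 736, 732 and 983 CPM in muscle, and was not called (log2 fold change 0.13, adjusted p = 0.29). RPL10L (gene 538748; chromosome 10, 39647704 to 39648473), a paralog known from the testis, had 0 counts, and 3 counts would have been 0.069 to 0.241 CPM in these libraries.

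**Figure D3:**
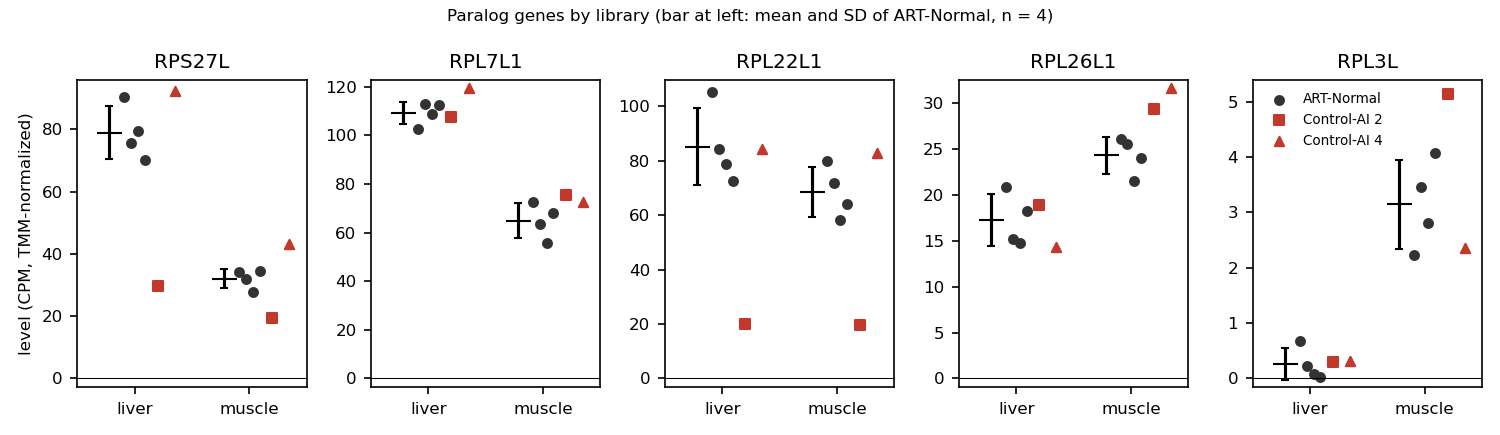
Levels (CPM after TMM scaling, vertical axis on a linear scale) of 5 paralogs in liver and muscle. Dark circles are ART-Normal fetuses, the bar at their left is their mean with SD (n = 4), and red squares and triangles are Control-AI 2 and 4. RPS27L and RPL7L1 are higher in every ART-Normal liver, while RPL26L1 and RPL3L are higher in every ART-Normal muscle.

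The ratio of each paralog to its partner was compared between tissues within fetuses, which cancels gene length and, for genes well above the added 0.5 CPM, library scaling (log2 of CPM plus 0.5, liver minus muscle, n = 4 fetuses). RPS27L over RPS27 was higher in liver by 1.48 ± 0.30 (SD), RPL7L1 over RPL7 by 1.18 ± 0.21, and RPL22L1 over RPL22 by 0.94 ± 0.20. RPL3L over RPL3 differed by -2.44 ± 0.70, a value that depends on the CPM added, since RPL3L was near or below it in liver (-3.62 with 0.1 CPM and -1.86 with 1 CPM). For each of these 4 pairs all 4 fetuses had the same direction, and the exact permutation test gave p = 0.13, the smallest possible, so none can reach 0.05. RPL26L1 over RPL26 differed by -0.03 ± 0.27, with 3 of 4 fetuses lower (exact permutation p = 0.75). Both genes of that pair fell in liver, RPL26 from 435 ± 52.2 to 314 ± 35.2 CPM (SD, n = 4) with a log2 fold change of -0.47 (adjusted p = 0.0041 from edgeR).

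The partners were described in the same way. RPL7 had 704, 697, 687 and 513 CPM in liver and 962, 898, 767 and 854 CPM in muscle, and RPL22 had 253, 207, 235 and 164 CPM and 336, 368, 290 and 324 CPM. Both were lower in liver without overlap, with log2 fold changes of -0.43 (adjusted p = 0.007963) and -0.63 (adjusted p = 0.001178) from edgeR. RPS27 had 371 to 510 CPM in liver and 426 to 663 CPM in muscle and was not called (log2 fold change -0.19, adjusted p = 0.3141). In the Control-AI fetuses, the pairs of RPS27L, RPL7L1, RPL22L1 and RPL3L had the ART-Normal direction. The differences in fetuses 2 and 4 were 0.82 and 1.14 for RPS27L, 1.05 and 1.17 for RPL7L1, 1.05 and 0.77 for RPL22L1, and -3.03 and -2.05 for RPL3L. For RPL26L1, whose ART-Normal fetuses did not share a direction, the differences were -0.23 and -0.53. RPL22L1 itself hardly differed between the control tissues, at 19.9 CPM in liver and 19.8 CPM in muscle of Control-AI 2. In Control-AI 4 it had 84.2 and 82.9 CPM. RPL22 was lower in both control livers, at 178 against 368 CPM in Control-AI 2 and 244 against 409 CPM in Control-AI 4.

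Some ribosomal proteins have names outside the rule. RPL36AL, the autosomal partner of RPL36A, had 124, 111, 119 and 111 CPM in liver and 88.7, 75.9, 62.7 and 79.6 CPM in muscle. It was higher in every liver (log2 fold change 0.61, SE 0.09, adjusted p = 0.0002784 from edgeR), and its ratio to RPL36A was higher in liver by 1.12 ± 0.46 (SD, n = 4 fetuses, exact permutation p = 0.13). In Control-AI 2 and 4 the differences were 0.62 and -0.21. RACK1, a scaffold protein on the small subunit, had 624 to 698 CPM in liver and 979 to 1242 CPM in muscle, with a log2 fold change of -0.72 (SE 0.10, adjusted p = 0.0001796). FAU, whose product is made fused to a protein like ubiquitin, was not called (log2 fold change 0.16, adjusted p = 0.1574).

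The factors that work on the ribosome were compared from fixed lists, beside 82.2% of all genes called in either direction. Of 6 elongation factor genes tested, 5 were lower and 0 higher in liver. EEF1A1, which brings aminoacyl-tRNA to the ribosome, had 2784 to 3623 CPM in liver and 5110 to 5578 CPM in muscle (log2 fold change -0.79, SE 0.15, adjusted p = 0.000904 from edgeR). EEF2, which moves the ribosome along, had 997 to 1164 CPM in liver and 1313 to 1739 CPM in muscle (-0.49, SE 0.11, adjusted p = 0.003244). EEF1A2, the adult muscle form, was below the filter at 0.48 ± 0.21 CPM in muscle and 0.082 ± 0.071 CPM in liver (SD, n = 4). Of 12 subunits of initiation factor 3 that were listed and tested, 5 were higher and 5 lower. Those named here were chosen after their values were seen: EIF3B, EIF3A, EIF3I, EIF3L and EIF3J were higher (0.29 to 0.81), and EIF3E, EIF3H, EIF3D, EIF3F and EIF3M were lower (-0.69 to -0.28).

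Genes for building ribosomes were compared next. Of 35 genes of ribosome assembly and RNA polymerase I tested, 14 were higher (40.0%), 4 lower (11.4%) and 17 not called. Among all genes tested, 41.7% were called higher and 40.5% lower, so the share of assembly genes called higher was near that of all genes. The median log2 fold change of the assembly genes was 0.09. NOP56, a core protein of the particles that methylate ribosomal RNA, had 188 to 203 CPM in liver and 77.0 to 99.1 CPM in muscle (log2 fold change 1.18, SE 0.08, adjusted p = 1.493e-06 from edgeR). NOP16, a nucleolar protein of large-subunit assembly, had 30.6 to 36.1 CPM and 10.3 to 17.6 CPM (1.17, SE 0.14, adjusted p = 4.464e-05). LTV1, which acts in small-subunit assembly, and RRN3, which recruits RNA polymerase I, were lower, at -0.48 (adjusted p = 0.0004917) and -0.43 (adjusted p = 0.001322). The other 2 that fell were NPM1 (-0.37) and POLR1E (-0.31), named after their values were seen. Of 7 genes that control TOP mRNAs, LARP1 (1.24) and RPS6KB2 (0.95) were higher, and EIF4EBP1 (-2.64), EIF4EBP2 (-0.70), MTOR (-0.54), RPTOR (-0.53) and RPS6KB1 (-0.27) were lower, also named after their values were seen. The 78 proteins of the mitochondrial ribosome, a separate machine, had a median of 0.42, with 46 higher (59.0%), 9 lower (11.5%) and 23 not called.

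**Figure D4:**
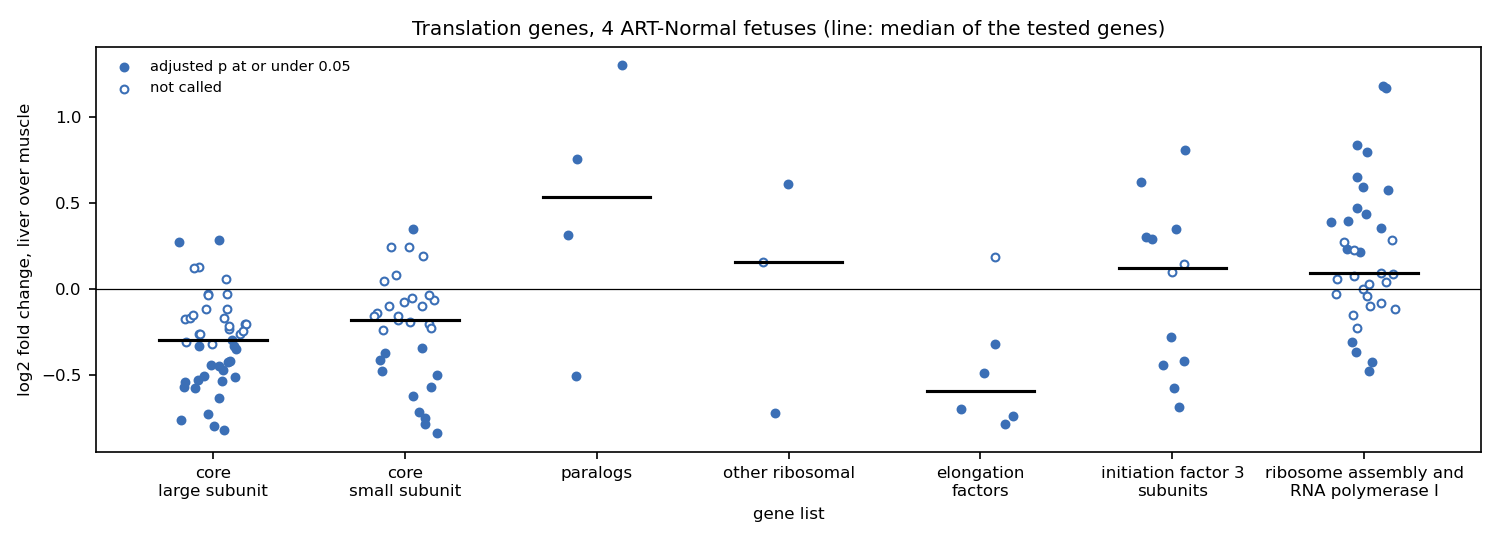
Log2 fold change of liver over muscle (vertical axis) for the tested genes of 7 lists in 4 ART-Normal fetuses, 1 point per gene, with a black line at each list's median. Filled points have an adjusted p of 0.05 or lower, and "other ribosomal" holds RACK1, RPL36AL and FAU. The medians are -0.30 for large-subunit, -0.18 for small-subunit and 0.09 for assembly genes.

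Within a tissue, core genes varied in 2 ways. Libraries of both tissues were shifted as a whole. In muscle, ART-Normal 4 lay above the mean of the other 3 libraries in 68 of 76 core genes (median log2 difference 0.21), and ART-Normal 3 lay below in 70 of 76 (median -0.19). In liver, ART-Normal 3 and 1 lay above in 62 and 55 of 76 (medians 0.19 and 0.16), and ART-Normal 2 lay below in 59 of 76 (median -0.14). Single genes also departed in single libraries. Of 304 core values in liver, 4 differed by more than 2-fold from the other 3 livers, against 0 of 304 in muscle. That is 1.32% of the liver values, beside 0.438% for other genes of at least the level of the lowest core gene, of which 0.0267% did so in muscle. The core values were RPL37A at 160 CPM and RPL35A at 196 CPM in ART-Normal 2, RPL31 at 211 CPM in ART-Normal 4 and RPL36A at 65.0 CPM in ART-Normal 1, with the other livers at 472 to 529, 440 to 585, 421 to 484 and 141 to 150 CPM. After the library median was removed, the median SD of core genes over 4 livers was 0.20 on the log2 scale, and over 4 muscles it was 0.11. For those other genes these were 0.15 and 0.15. RPL35A was low in the liver of Control-AI 4 as well, at 193 CPM.

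**Figure D5:**
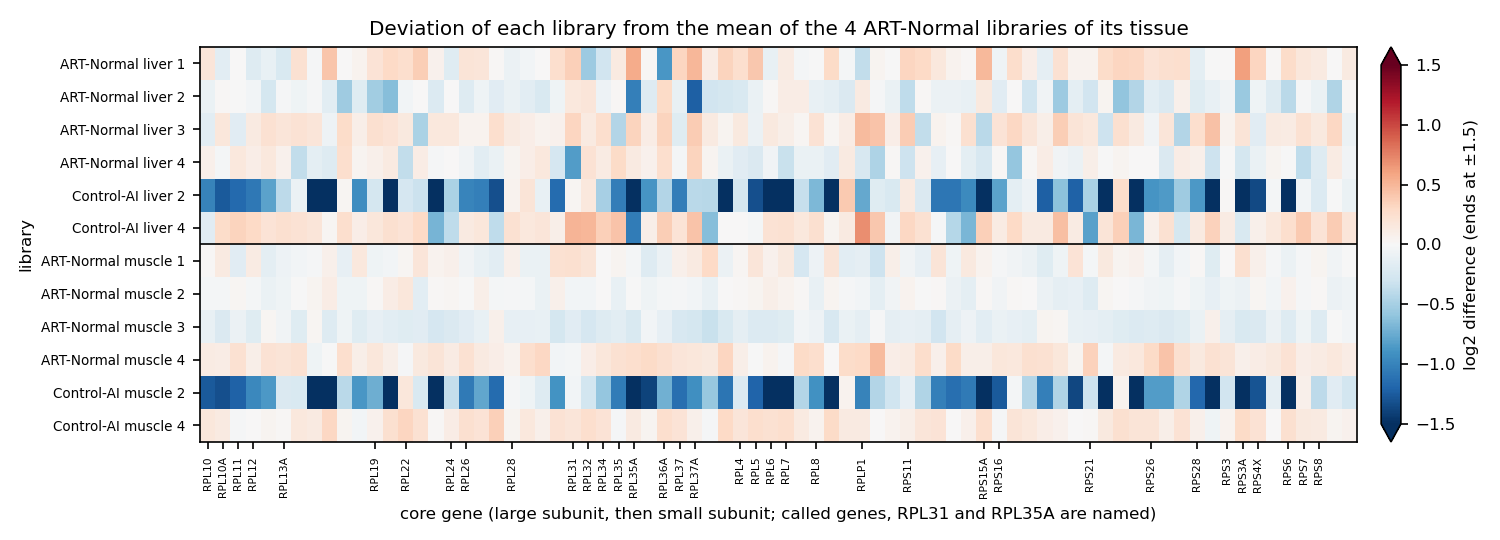
Log2 difference (colour, red for higher and blue for lower) of each of 76 core genes (horizontal axis) in each of 12 libraries (vertical axis) from the mean of the 4 ART-Normal libraries of its tissue. Single dark cells in the ART-Normal liver libraries are RPL37A, RPL35A, RPL31 and RPL36A. The Control-AI 2 libraries are blue for most genes in both tissues.

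Control-AI 2 had low core levels in both tissues. In liver 53 of 76 core genes, and in muscle 68 of 76, lay below all 4 ART-Normal libraries, where 27.6% and 26.1% of all genes tested did. The median log2 difference from the ART-Normal mean was -0.81 in liver and -0.87 in muscle. RPL7, RPL15, RPL17, RPL23A and RPS15A were more than 4-fold lower in both of its tissues, RPL9 and RPS25 in its liver alone and RPS6 in its muscle alone. RPS15A was at 10.6 CPM in liver and 5.99 CPM in muscle, against 268 to 498 CPM and 424 to 503 CPM in ART-Normal. Not every core gene was low in this fetus: RPLP0 was at 1554 CPM in its liver, above the ART-Normal range. Low levels were also not limited to core genes. EEF1A1 had 611 and 775 CPM in the liver and muscle of Control-AI 2, against 2784 to 3623 and 5110 to 5578 CPM in ART-Normal. RPL22L1 had 19.9 and 19.8 CPM, against 72.5 to 105 and 58.4 to 79.8 CPM. EEF2, at 1207 and 1532 CPM, and RPL7L1, at 107 and 75.7 CPM, were not low. These genes outside the core were named after their values were seen. In Control-AI 4, 10 core genes in liver and 0 in muscle lay below all ART-Normal libraries, where 18.3% and 20.9% of all genes tested did, and 28 lay above in each tissue, beside 18.1% and 19.5%.

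Genes opposite some members were high in this fetus. Of the 82 members, 9 overlap a gene on the other strand. The most abundant such genes were DENND4C opposite RPS6, LONP1 opposite RPL36 and NDEL1 opposite RPL26, at 92.6, 83.0 and 47.6 CPM on average over the ART-Normal libraries. LOC107131323, which lies opposite RPS9 and was singled out after its values were seen, had 245 and 236 CPM in the liver and muscle of Control-AI 2 and 1.63 to 11.2 CPM in the other 10 libraries. NUP210L, opposite RPS27 and also chosen so, had 37.3 and 33.8 CPM in Control-AI 2 and 2.21 to 8.999 CPM elsewhere. IQCG, opposite RPL35A and chosen in the same way, had 137 and 189 CPM in Control-AI 2 and 3.00 to 7.87 CPM elsewhere. In the liver and muscle of Control-AI 2, RPS9 itself had 487 and 482 CPM (358 to 606 and 510 to 605 CPM in ART-Normal). RPS27 had 239 and 277 CPM (371 to 510 and 426 to 663 CPM). RPL35A had 118 and 212 CPM (196 to 585 and 580 to 813 CPM). Of the core genes more than 4-fold lower in this fetus, RPS6 and RPS25 overlap a gene on the other strand. RPL7, RPL9, RPL15, RPL17, RPL23A and RPS15A do not. DENND4C, opposite RPS6, had 104.7 and 92.5 CPM in the liver and muscle of Control-AI 2 and 78.2 to 104.5 CPM in the other 10 libraries. CCDC84, opposite RPS25, had 5.93 and 11.5 CPM in Control-AI 2 and 6.10 to 12.7 CPM elsewhere. How reads on either strand were counted is not stated, so such pairs are uncertain, and the part of this in the low values was not tested. Without the overlapping genes, 28 of 67 core genes were lower and 2 higher in liver, with a median of -0.24.

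The tissue difference was also read within each control. The median log2 ratio of liver over muscle over the core genes was -0.21 in Control-AI 2 and -0.31 in Control-AI 4, with 55 and 57 of 76 genes lower in liver. Of the 32 core genes called lower in ART-Normal, 31 were lower in Control-AI 2 and 29 in Control-AI 4. Both controls were lower in 28 of 32 (87.5%), beside 95.4% of all genes called lower. Of the 3 core genes called higher, 2 were higher in both controls (66.7%), beside 96.1% of all genes called higher. The exception was RPS21, which was lower in the liver of Control-AI 4, at 144 CPM against 202 CPM in muscle. The difference of the tissue contrast between ART-Normal and Control-AI was tested as an interaction. By edgeR's quasi-likelihood test 0 of 80 members were called, as were 0.0% of the 12923 genes, and 2 members had an unadjusted p under 0.05, where 9.52% of all genes did. The likelihood ratio test called 0 members too. The smallest p was that of RPS25, a small-subunit protein (adjusted p = 0.5104), whose livers had 691, 410, 611 and 559 CPM in ART-Normal and whose control livers had 125 and 346 CPM. Its muscles had 518 to 668 CPM, and the control muscles 179 and 682 CPM.

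ART-Normal was compared with Control-AI in each tissue to address the method of conception. In muscle, 0 of 80 members were called by edgeR's quasi-likelihood test, beside 0.00855% of 11695 genes, and 0 had an unadjusted p under 0.05, where 9.19% of all genes did. DESeq2 and the likelihood ratio test called 0 members as well. In liver, 0 of 80 were called, beside 0.0% of 11304 genes, and 10 had an unadjusted p under 0.05 (8.39% of all genes). DESeq2 and the likelihood ratio test called 2 each. The share of all genes that those tests called is not given here, so these counts lack a background. The smallest p in liver was that of RPS15, a small-subunit protein, which had levels of 710, 647, 832 and 634 CPM in ART-Normal livers, while control livers 2 and 4 had 361 and 436 CPM. The groups did not overlap, and the log2 fold change was 0.82 (SE 0.18, adjusted p = 0.3727). In muscle it was that of RPL26L1 (-0.32, SE 0.15, adjusted p = 0.5668). The medians of the core genes, 0.28 in muscle and 0.25 in liver (ART-Normal over Control-AI), rested on Control-AI 2. Without that fetus they were -0.14 and -0.17 with 0 members called in either tissue, and without Control-AI 4 they were 0.90 and 0.81 with 46 and 39 members called, where 10.9% of 12215 and 7.15% of 11602 genes were called.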

How the data were processed

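Per the labels, stranded poly(A) libraries of 150 bp paired-end reads were made, and the submitters' processing notes name FastQC 0.11.7, HISAT2 2.1.0, featureCounts, edgeR 3.24.3 and ARS-UCD1.2. The authors deposited raw read counts per gene, without normalization, over whole gene spans. The settings for strand and for reads that match several places are not given in the sources used here, so genes with near-identical copies, as many ribosomal protein genes have, are uncertain. The authors' tables of comparisons (log2 fold changes, p-values and FDR) were not used. Of the count columns, 12 matched a sample and 14 were not used, and 5 kidney samples were not analysed here. No sequences of these genes were used here.

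Counts were tested with edgeR 4.0.16 in R 4.3.3 (TMM, quasi-likelihood, two-sided) where every library of a group reached 5 CPM, and p-values were adjusted by the method of Benjamini and Hochberg. The fetus was a block between tissues, since the fetal ID pairs the samples. Across genes, departures from the tissue mean had an r of 0.31, 0.06, 0.08 and 0.44 between the tissues of ART-Normal 1 to 4. Between tissues of different fetuses r ran from -0.38 to 0.23. The liver of ART-Normal 3 had a higher r with the muscle of ART-Normal 4 (0.15) than with its own. Fold changes are on the fitted log2 scale. Their standard errors were derived, as the absolute log2 fold change divided by the square root of the quasi-likelihood F statistic. Ratios used CPM plus 0.5. DESeq2 1.42.0 and other scalings, filters and blocks were alternatives. The tissue, muscle conception and interaction fits were also run on simulated counts, and the liver conception fit was not. Results of those simulations are not given here. The genes named are the paralogs and partners, the stalk proteins and RPSA, the 4 highest and 4 lowest core genes, those on X, the genes outside the name rule, up to 4 assembly genes and the member of smallest p in each conception comparison, and others were chosen after their values were seen. Results for 2 of the genes so named are not reported here. The members and lists were chosen with earlier results of these data known. Totals set the counting precision, and fetuses within a group are the replicates.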

Additional observations from a re-analysis of the deposited data

Results flagged for a closer look

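Each member with counts, in each tissue, was checked for a library whose gap to the nearest of the other 3 was large for the range of the group. Of 162 such groups, 11 held one, where chance gives about 1 in 20. In liver, RPL17 in ART-Normal 1 was high at 624 CPM against 410 to 444 CPM in the others. The remaining liver cases were low: RPL32 (283 against 453 to 480 CPM) and RPL36A (65.0 against 141 to 150 CPM) in ART-Normal 1, RPL37A in ART-Normal 2 (160 against 472 to 529 CPM) and RPL7 in ART-Normal 4 (513 against 687 to 704 CPM). In muscle, 5 of 6 were high in ART-Normal 4: RPL13A at 1232 CPM (1029 to 1044 in the others), RPL18 at 581 CPM (447 to 466), RPL3 at 983 CPM (732 to 736), RPL8 at 958 CPM (742 to 763) and RPS14 at 1292 CPM (964 to 1011). RPL6 was low in the muscle of ART-Normal 3, at 797 CPM against 959 to 982 CPM.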

How the results depend on the processing

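The core genes lower in liver numbered 28 to 48 under other scalings, filters, tests and blocks (28 without the replicate block), and 24 to 40 with 1 fetus left out. Among all genes, 5135 were called lower in the main fit and 5210 to 5462 under the other scalings. With 1 fetus left out, all genes called lower numbered 4985 to 5083. The counts of all genes called lower under the other filters, tests and blocks are not given here. The median of the core genes stayed negative, at -0.33 to -0.18 with a fetus left out and -0.33 to -0.24 under the scalings. It lay 0.27 below the median of all genes (-0.07 to 0.03) under every scaling. A scaling shifts all genes of a library alike, so this gap could hardly change and is not a separate check. Core genes higher in liver fell from 3 to 1 with upper quartile scaling or library size alone, and to 1 to 2 with a fetus left out. All genes called higher went from 5291 to 4979 and 4901 with these scalings, and to 4871 to 5183 with a fetus left out. The call of RPL36A is lost without the block between tissues, as given above, and the interaction called 0 members with or without it. With no filter, 2 paralogs were lower. RPL3L over RPL3 was -3.62 with 0.1 CPM added, and RPL26L1 over RPL26 was -0.15 to 0.059 with a fetus left out, positive without ART-Normal 3. The share difference was -1.41 to -0.94 points with a fetus left out. Uncalled values changed sign: RPLP0 to -0.022 (upper quartile), -0.034 (library size) and -0.0099 to -0.012 (without fetus 1 or 3; range to 0.13), RPLP2 to 0.23 (without 4; range from -0.18), RPSA to -2.45e-05 and -0.013 (the same scalings), and RPS25 to 0.045 (without 2; range from -0.22). Against Control-AI, members called in muscle were 5 in a replicate block over shared numbers, where fetuses share only a number, and 0 to 46 with a library left out. In liver they were 2 by the likelihood ratio test, 2 by DESeq2, and 0 to 39 with a library left out. The upper ends, 46 and 39, come without Control-AI 4, which leaves 1 control assumed to vary like the other group. RPS15 in liver was called by both tests (adjusted p = 0.02204 and 0.0019) and without Control-AI 4. For the calls against Control-AI by the other tests and in the replicate block, the share of all genes called is not given here. The causes of these changes were not tested. Low counts limit RPL3L, and 4 fetuses limit the exact tests.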
